A study of Mus musculus with 24 samples.

Results

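The promoters of the clustered protocadherin genes were studied by their contacts in the developing mouse face. They were found as bait fragments, the HindIII fragments for which capture probes were designed, between 36.9 and 37.9 Mb of chromosome 18 (mm10) that hold, or lie within 1 kb of, an annotated end of a gene whose symbol starts with Pcdha, Pcdhb or Pcdhg. The rule found 24 of the 22203 baits in the series. They comprise 3 alpha baits, 19 beta baits and 2 gamma baits, all of which hold an annotated gene start. A slash in a bait's name joins genes whose end is in the fragment or within 1 kb of it. The annotation lists 58 such genes (14 alpha, 22 beta and 22 gamma), and the baits hold the starts of 26 of them (3 alpha, 21 beta and 2 gamma). The starts of most beta genes are therefore seen, whereas the alpha and gamma arrays are seen through a few promoters. None of the C-type isoforms Pcdhac1, Pcdhac2, Pcdhgc3, Pcdhgc4 and Pcdhgc5, which follow the other variable exons of their arrays, has a bait, so no contact from their promoters is described. The cluster spans 911.6 kb, from 36930285 to 37841873. A 76.1 kb gap separates the alpha and beta arrays, and a 140.4 kb gap separates beta and gamma.

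The clustered protocadherins are cell-surface adhesion molecules, best known for giving neurons an individual identity. Their genes lie in the alpha, beta and gamma arrays on mouse chromosome 18, where each alpha and gamma isoform starts from its own variable exon, spliced to constant exons shared by the array, and each beta gene has a single coding exon. In neurons, the factor CTCF and the ring-shaped complex cohesin bring a chosen promoter to distant enhancers, which lie downstream of the alpha array and downstream of the gamma array. These data measure contacts of the promoters in cells of the developing face. They hold no measure of expression, and contact calls do not check which cell types a sample held.

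By its title, the study concerns Polycomb-dependent chromatin folding and long-range enhancer contacts in the developing face. Its subject was cranial neural crest cells, which build much of the facial skeleton. Whether the libraries of deletion embryos held only such cells is not known here. The study comprised 24 promoter capture Hi-C libraries in 12 groups of 2 replicates. The groups were wild-type (WT) neural crest progenitors at E8.5, wild-type cells of the sites labelled FNP, Mx, Md and PA2 at E11.5, the same 4 sites of Ezh2cKO embryos at E11.5, Md and PA2 of Hoxa2PTE-36kb-del embryos at E11.5, and PA2 of Hoxa2PTE-42kb-del embryos at E11.5. Ezh2 encodes the catalytic subunit of Polycomb repressive complex 2. The labels name fluorescence sorting for Wnt1::Cre;ROSARFP and Ezh2cKO embryos, and the sources used here do not say whether cells of deletion embryos were sorted or which driver made the Ezh2 knockout conditional. Wnt1::Cre acts in the dorsal neural tube and the neural crest that leaves it. Each library has its own batch label, and the genotype field of PA2 Hoxa2PTE-36kb-del replicate 2 holds another sample's title, so this library was grouped by its title.

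A call is a pair of fragments to which the authors gave an interaction score of at least 5. A contact that falls short of that score is not listed, so no call does not mean no contact, and the number of reads behind a call is unknown. The libraries held between 136997 and 183781 calls within a chromosome (cis). The E8.5 libraries held 149642 and 157577, the E11.5 wild-type libraries 163068 to 170751, and the 6 deletion libraries 136997 to 152360. Each call was counted for every end that is a bait.

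The protocadherin baits had many calls, and most of them stayed inside the cluster. Together they had 535 to 1080 cis calls per library. In the mean of the 24 libraries, 69.3% ± 1.63 (SD, n = 24) of these ended inside the cluster, 15.2% ± 1.37 in the 100 kb upstream of it, 11.9% ± 1.48 in the 100 kb downstream and 3.62% ± 1.07 farther away. The share inside the cluster lay between 65.5% and 72.0% in every library. The median bait of the 24 had 31.4 cis calls in a mean library, against 4.50 for the median of all baits. All 24 lay above that median and 16 lay above 19.8, the lower edge of the highest decile. The Pcdha3/Pcdha4 bait, with 6.75, owed its place above the median to the 6 deletion libraries, as its mean over the 18 others was 2.94. Of the other clustered families, the Hox baits had a median of 25.1, keratin baits 18.5, olfactory receptor baits 6.71 on chromosome 2 and 6.31 on chromosome 7, and histone baits on chromosome 13 had 51.1. The median distance of a call, taken over baits, was 403 kb for the protocadherins and 508 kb for all baits.

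**Figure D1:**
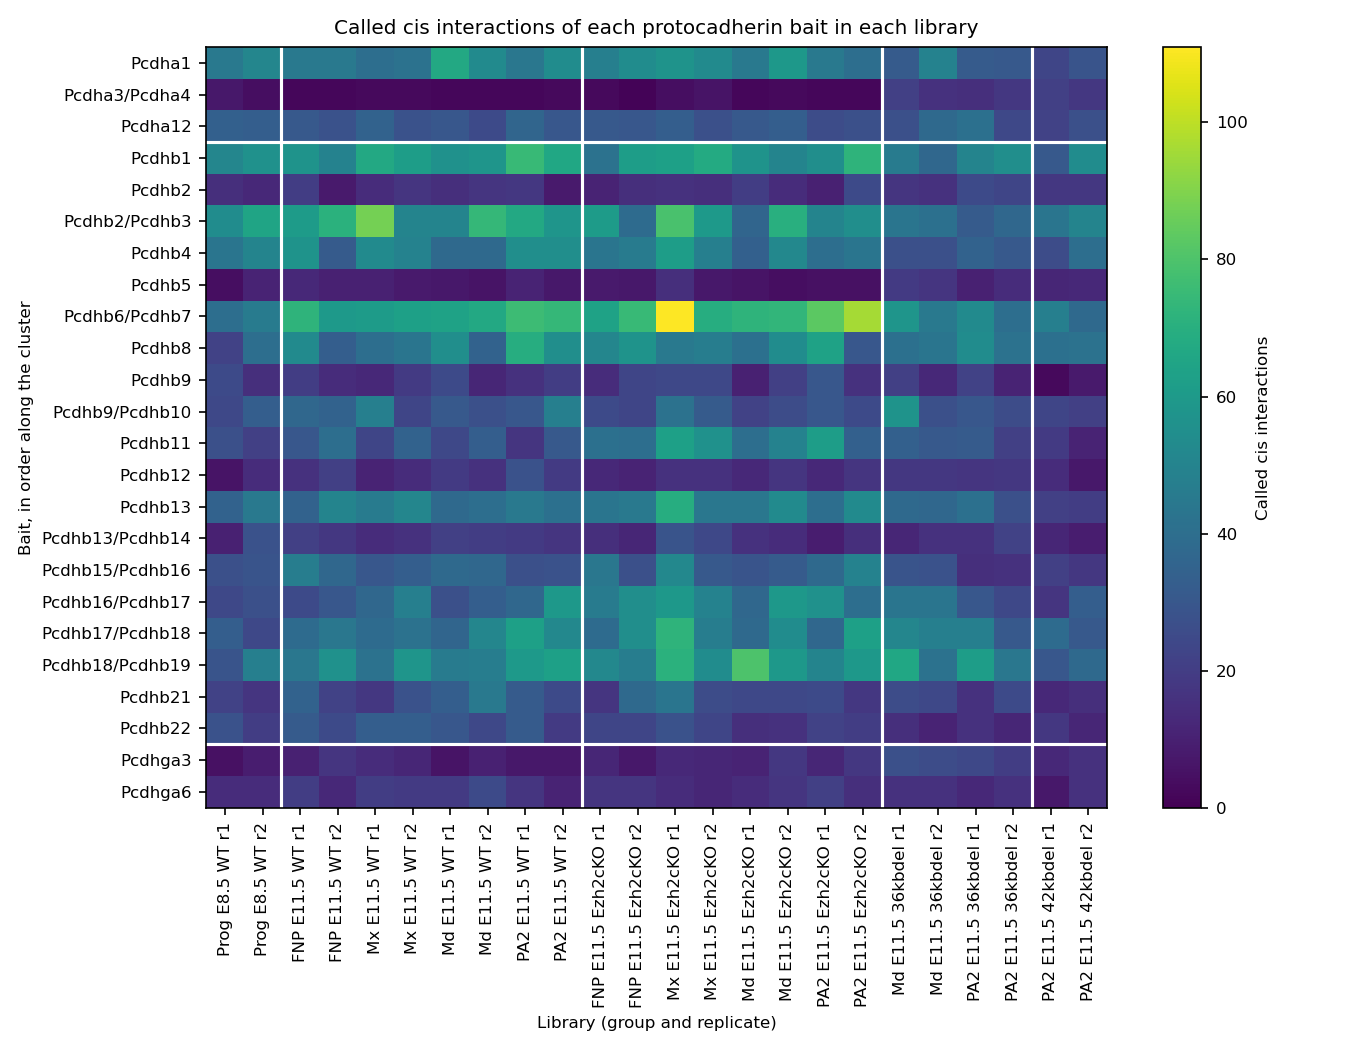
Called cis interactions of the 24 protocadherin baits (rows, in order along the cluster) in the 24 libraries (columns, group and replicate); white lines part the arrays and the kinds of sample. Pcdhb6/Pcdhb7 had the most calls in the mean of all libraries (64.5), and the Pcdha3/Pcdha4 bait is dark in every library except the 6 deletion libraries on the right.

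The baits differed widely in the number of their calls. In the alpha array Pcdha1 had a mean of 45.1 ± 10.4 (SD, n = 24) cis calls, Pcdha12 had 30.3 ± 4.54 and the Pcdha3/Pcdha4 bait 6.75 ± 6.95. In the beta array Pcdhb6/Pcdhb7 led with 64.5 ± 17.6, ahead of Pcdhb1 with 55.8 ± 10.5 and Pcdhb2/Pcdhb3 with 55.6 ± 14.6, and Pcdhb5 had the fewest, 9.54 ± 4.11. The gamma baits had few, with 16.0 ± 3.71 for Pcdhga6 and 13.6 ± 6.14 for Pcdhga3. The ranges of the 3 leading beta baits over all libraries overlapped, and their order depended on the group. At E8.5 Pcdhb6/Pcdhb7 had 40 and 46 calls, Pcdhb1 had 51 and 56, and Pcdhb2/Pcdhb3 had 54 and 65. In each Ezh2cKO library Pcdhb6/Pcdhb7 had the most of these 3. Differences between baits were not tested. Pcdhb1 is among the isoforms whose promoter is known to lack the conserved element of the cluster's promoters, and it was among the baits with the most calls.

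The arrays differed in where their calls went. The alpha baits, at the upstream end, called downstream fragments: 98.1% of the calls of Pcdha1 and 95.5% of those of Pcdha12 pointed that way, in the majority in each of the 24 libraries. For Pcdha3/Pcdha4, which had few calls, it was 84.6%, with a majority in 15 libraries. Most of the calls behind that share came from the 6 deletion libraries. Of the 19 beta baits, 14 pointed upstream in most libraries and 3 downstream. Of the alpha baits' calls, 60.5% ± 4.28 (SD, n = 24) ended in the beta array, 12.1% ± 2.50 in the gap between alpha and beta, and 3.80% ± 2.41 in the alpha array itself. The beta baits, in the middle, reached both ends of the cluster. They sent 30.6% ± 1.51 of their calls to the alpha array, 17.3% ± 1.56 to the 100 kb upstream of it, 13.1% ± 1.65 to the gamma array and 12.6% ± 1.74 to the 100 kb downstream of it, and 12.5% ± 1.61 stayed in the beta array. The gamma baits sent 40.8% ± 5.54 to the beta array and 26.9% ± 4.93 to the downstream flank. Pcdhga6 pointed upstream in each of the 24 libraries, and Pcdhga3 in 15.

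**Figure D2:**
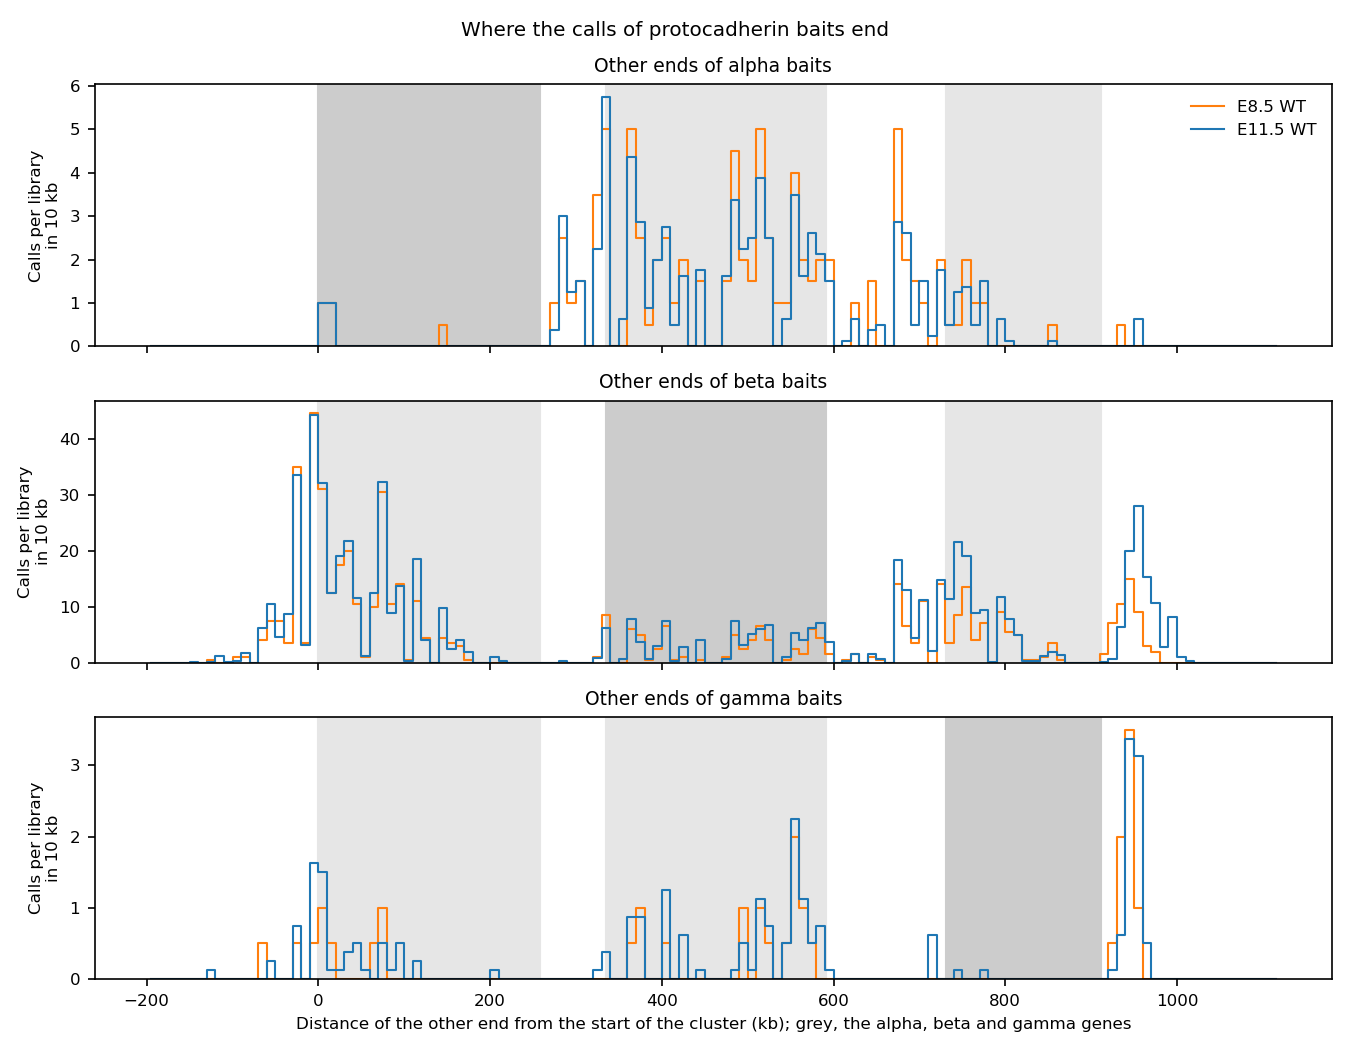
Calls per library in 10 kb steps (y axis) against the distance of the other end from the start of the cluster (x axis, kb), for alpha, beta and gamma baits, at E8.5 (mean of 2 libraries) and E11.5 (mean of 8 wild-type libraries); the grey bands are the 3 arrays, the darker one that of the baits. Beta baits show peaks at both ends of the cluster, and the blue line rises above the orange one beyond the gamma array.

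Pooled over the 24 libraries, many fragments received calls from most of the promoters, and those named here are examples. For instance, chr18:36934291-36938983 in the alpha array was called by 21 members in all and by 11 to 14 in each E11.5 wild-type library. The Pcdha1 bait itself was called by 22 of the other baits, with 18 to 21 in each E11.5 wild-type library. The Pcdha12 bait, within the alpha array, was called by 22 as well. Between beta and gamma, an unnamed bait at chr18:37651972-37660581, which overlaps the pseudogene Gm8242, was called by 22 members in all and by 15 to 18 in each E11.5 wild-type library. The bait at Slc25a2, a mitochondrial transporter gene in the same gap, was called by 21 members, and the bait at Taf7, a gene for a subunit of the general transcription factor TFIID, by 13 members in 15 libraries. Upstream of the alpha array the leading fragment was chr18:36925284-36925908, called by 22 members. Downstream of the gamma array the calls met in Diaph1, a gene for an actin-nucleating formin annotated at 37843601 to 37935622. There chr18:37882878-37884862 was called by 23 members and chr18:37884863-37890469 by all 24, though not by all in the same library.

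Of 3197 distinct cis interactions of the protocadherin baits, 29 were called in all 24 libraries. That is 0.907%, against 1.30% of the 1153700 distinct cis interactions of all baits. The highest median score, 23.5, belonged to Pcdhb18/Pcdhb19 with the Gm8242 bait, 158 kb away, followed by Pcdhb17/Pcdhb18 with that bait (19.7). Next came interactions with the Diaph1 fragment chr18:37882878-37884862, from Pcdhb17/Pcdhb18 (19.0) and Pcdhb18/Pcdhb19 (16.9). Pcdha12 reached chr18:37216533-37219727, in the gap between alpha and beta and 196 kb away, with a median score of 16.6. Pcdha1 and Pcdhb5 were joined across 393 kb (15.9). The remaining 4 of the first 10 joined Pcdhb15/Pcdhb16, Pcdhb17/Pcdhb18 and Pcdhb16/Pcdhb17 to Diaph1 (15.5, 15.5 and 14.1) and Pcdhb18/Pcdhb19 to Slc25a2 (14.5).

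The promoters were also called with each other, over long distances in particular. Of the 276 possible pairs of protocadherin baits, 200 were called in at least 1 library, 65 in at least 12 and 7 in all 24. At 20 to 100 kb, 12.7% ± 3.79 (SD, n = 24) of the protocadherin pairs were called in a library, against 9.38% ± 0.708 of all pairs of baits at that distance. At 250 to 500 kb the values were 44.4% ± 4.34 and 6.14% ± 0.272, and at 500 to 800 kb 50.4% ± 8.53 and 2.82% ± 0.171. From 100 kb on, the protocadherin share was the higher in each of the 24 libraries. The share of called pairs was thus higher at longer distances inside the cluster, whereas it fell over all baits. The protocadherin pairs numbered 82 at 20 to 100 kb, 65 at 250 to 500 kb and 21 at 500 to 800 kb. Each of these 21 included an alpha bait, and Pcdha1 alone was called with 18 to 21 members in each E11.5 wild-type library. The part of distance and that of single baits cannot be told apart here. These shares are a description of 1 cluster whose baits share their position.

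Few calls left the neighbourhood. Past the downstream flank the baits had 12.1 ± 5.30 (SD, n = 24) calls per library, in the first 4 Mb of chromosome 18 they had 7.33 ± 3.82, and between those 4 Mb and the upstream flank 8.38 ± 3.54. Past the downstream flank the E8.5 libraries had 19 and 27 calls and the E11.5 wild-type libraries 7 to 16, and in the first 4 Mb they had 1 and 4 against 5 to 11. The stages did not overlap in either place, with more distant downstream calls at E8.5, and these differences were not tested. The counts were not scaled by library size or set beside those of all baits, and the limit of 4 Mb was not planned. Between 4 Mb and the upstream flank the stages overlapped, with 11 and 13 against 2 to 14. Calls to other chromosomes made up 1.48% of the protocadherin calls, against 3.53% over all baits, and 237 of the 254 distinct ones were seen in a single library.

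Between E8.5 and E11.5, the calls that reached a part of Diaph1 multiplied. The share of protocadherin calls ending in the 100 kb downstream of the cluster was 8.17% and 8.42% in the E8.5 libraries. In the 8 E11.5 wild-type libraries it lay between 10.9% and 14.1%, with a median of 12.7%. The 2 stages did not overlap. The number of calls received was then fitted for each fragment that is no bait, across all 2521 such fragments with a mean of at least 5 calls, counting calls from any bait. This fit was chosen after the pattern had been seen, and E8.5 and E11.5 also differ in tissue, since the E8.5 cells are progenitors.

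The fragment chr18:37884863-37890469, 45.8 kb beyond the end of the cluster, had 4 and 3 calls at E8.5. At E11.5 it had 15 at the lowest, 17.5 at the median and 24 at the highest. The log2 change was 2.09 ± 0.151 (SE; limma, adjusted p = 9.5e-08, n = 2 and 8). All of its E11.5 values lay far above those of E8.5. The neighbour chr18:37890470-37894426 rose from 2 and 4 calls to between 9 and 14 (log2 change 1.60 ± 0.213, limma, adjusted p = 4.2e-05). The next one, chr18:37894427-37899614, had 1 and 0 calls at E8.5 and 3 to 9 at E11.5 (log2 change 2.95 ± 0.50, which depends on the constant added at such low counts; limma, adjusted p = 3.9e-04). Rises were smaller at chr18:37882878-37884862, from 8 and 9 to between 15 and 20 (0.93 ± 0.141, limma, adjusted p = 1.4e-04), and at chr18:37899615-37901858 (1.30 ± 0.406, limma, adjusted p = 0.030), where the stages overlapped.

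In all, 5 of the 7 fragments tested in the downstream flank rose, where 17.7% of all fragments tested were called higher and 4.01% lower. The flank holds 22 fragments that are no bait and received a call, and the mean of at least 5 calls is taken over libraries that are nearly all of E11.5, so a fragment with more calls at E8.5 was less likely to be tested. With a mean of at least 5 calls at either stage, a filter added after seeing the data, 8 of the 22 were tested, and 5 rose and 1 fell, where 14.3% of all fragments were called higher and 8.56% lower. The one that fell, chr18:37861221-37865201, lay 21.3 kb beyond the cluster and had 9 and 12 calls at E8.5 and 1 to 6 at E11.5 (log2 change -1.64 ± 0.421, SE, limma, adjusted p = 0.011). The stages did not overlap there. The call of chr18:37899615-37901858 was lost without E8.5 replicate 1 (0.40) or Md wild-type replicate 1 (1.24), and the other 4 held without each library in turn; with calls of a score of at least 7 there were 3. The other 2 of the 7, chr18:37872815-37876137 and chr18:37876138-37882822, nearer to the gamma array, had changes of 0.19 ± 0.220 and 0.22 ± 0.128 that missed the threshold (limma, adjusted p = 0.59 and 0.24). The 5 fragments that rose lay 42 to 58.9 kb beyond the cluster, and these 32.6 and 37.6 kb beyond it. Of the 10 fragments of the upstream flank none was called (limma, none at an unadjusted p under 0.05 either), with a median change of -0.06. Of the 24 inside the cluster 1 was called, chr18:37667598-37673567 in the gamma array, which rose from 2 and 1 calls to between 5 and 9 (1.82 ± 0.306, limma, adjusted p = 3.7e-04).

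**Figure D3:**
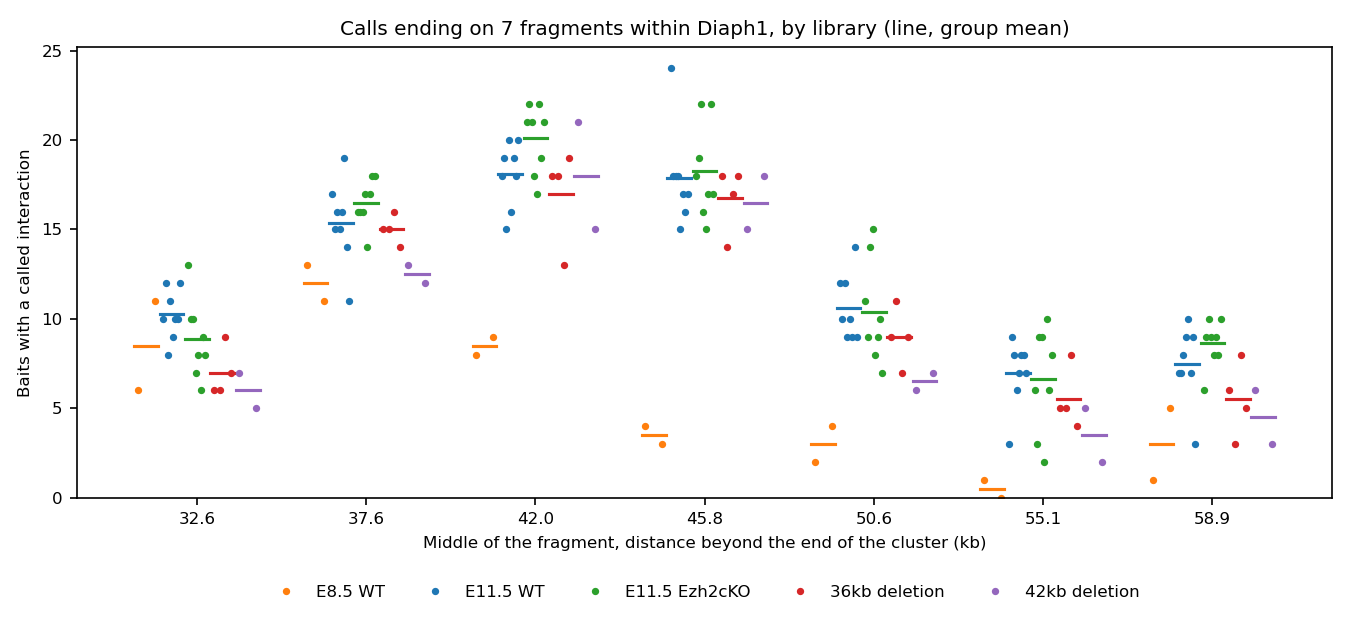
Number of baits with a called interaction (y axis) on each of 7 fragments within Diaph1, in order and evenly spaced, labelled with the distance of their middle beyond the end of the cluster (x axis, kb); points are libraries and lines group means. At 45.8 kb the E8.5 libraries have 3 and 4 calls, below all the others, and the Ezh2cKO and deletion libraries there have 14 to 22, where the E11.5 wild type has 15 to 24.

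Most of these calls came from the protocadherin promoters, 88.1% of those on chr18:37884863-37890469. The 7 Diaph1 fragments passed a filter set mostly by E11.5 libraries, so their sum leaves out chr18:37861221-37865201, the Diaph1 fragment that fell. Over the 7 fragments the protocadherin baits had 28 and 36 calls at E8.5 and 70 to 83 at E11.5 in the wild type. The Ezh2cKO libraries had 65 to 86, the Hoxa2PTE-36kb-del libraries 68 to 71 and the Hoxa2PTE-42kb-del libraries 55 and 61. None of the 7 fragments was called in the Ezh2cKO, 36 kb or 42 kb comparison (limma; 0, 0 and 2 at an unadjusted p under 0.05). Of the single interactions, 42 were called in at least 7 of the 8 E11.5 wild-type libraries and in neither E8.5 library. They were 9.68% of the 434 that were frequent at either stage, against 11.47% over all baits. Of the 42, 23 ended on the 7 Diaph1 fragments. They included those of Pcdhb18/Pcdhb19 and Pcdhb6/Pcdhb7, each of which called chr18:37884863-37890469 in 22 libraries and in neither of E8.5, and that of Pcdhga3 with chr18:37882878-37884862, also in 22. In the other direction, 32 interactions (7.37%, against 18.7% over all baits) were called in both E8.5 libraries and in at most 1 of the 8. None of the 32 ended on the 7 fragments. The filter that kept these 7 favoured fragments with calls at E11.5, so this split was partly set in advance. Of the 32, 8 ended elsewhere in the downstream flank. Some of these also lay within Diaph1, such as that of Pcdhb17/Pcdhb18 with chr18:37850809-37854368.

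Counted per bait, the stages differed little. Of the 24 baits, 2 had more cis calls at E11.5 and 1 had fewer, where 18.6% of the 10344 baits tested were called higher and 10.3% lower. Pcdhb6/Pcdhb7 had 40 and 46 calls at E8.5 and between 60 and 76 at E11.5 (log2 change 0.52 ± 0.160, SE, limma, adjusted p = 0.018). Pcdhb12 had 6 and 14, and between 11 and 28 (0.77 ± 0.268, limma, adjusted p = 0.036). The Pcdha3/Pcdha4 bait had 7 and 4, and 2 or 3 (-1.15 ± 0.382, limma, adjusted p = 0.028). It entered this fit only through its calls in the deletion libraries, since its mean over the 18 other libraries was 2.94; with a mean of at least 2 calls as the filter its adjusted p was 0.032 (limma). All 3 calls were lost without E8.5 replicate 1 (0.46, 0.23 and -0.74). Without E8.5 replicate 2, Pcdhb6/Pcdhb7 was lost (0.58). Pcdhb12 was also lost without FNP replicate 2 (0.72), Mx replicate 2 (0.74), Md replicate 1 (0.74) or PA2 replicate 1 (0.70) of the wild type. Beyond 250 kb, where 22.7% of 7136 baits were called higher and 7.86% lower, Pcdhb6/Pcdhb7 (0.60 ± 0.160) and Pcdhb12 (1.05 ± 0.302) were called again, and both were lost without E8.5 replicate 1 (0.55 and 0.44). Within 250 kb, 19 of the 24 had enough calls to be tested and 1 was called, Pcdhb17/Pcdhb18 (0.93 ± 0.318), where 19.8% of 3245 baits were called higher and 12.6% lower; it was lost without either E8.5 replicate, and without FNP 2, Mx 2, Md 2 or PA2 1 of the wild type (0.84 to 0.97).

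Between FNP, Mx, Md and PA2 of the wild type none of the 24 baits was called (limma, F test), with 2 at an unadjusted p under 0.05. Over all baits 28 of 10344 were called (0.271%), so a count of 0 among 24 is near the background.

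**Figure D4:**
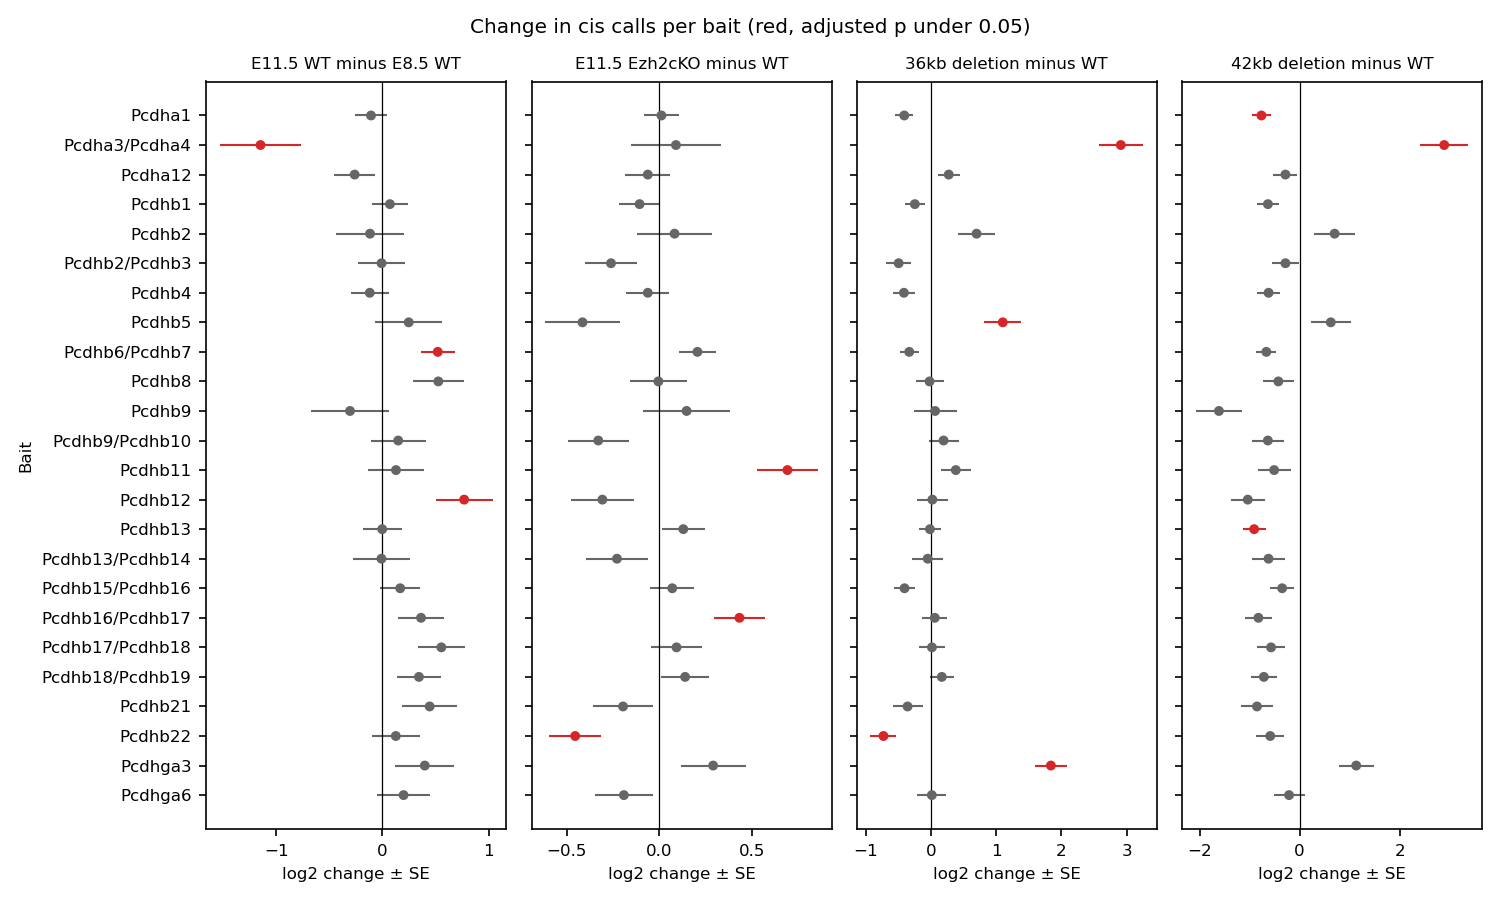
Log2 change in cis calls of each bait (x axis, with SE) in 4 comparisons; baits are in order along the cluster and red marks an adjusted p under 0.05 in limma. The changes of Pcdha3/Pcdha4 (2.91 and 2.89) stand far to the right in both deletion comparisons, and 20 of the 24 baits lie left of 0 in the 42 kb comparison. The x axes differ in range.

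In the Ezh2cKO few protocadherin baits were called as changed, and their number was near the background. Of the 24 baits 2 had more calls in the Ezh2cKO and 1 had fewer, where 5.38% of all baits tested were called higher and 5.39% lower. The clearest was Pcdhb11, which had 17 at the lowest, 30.5 at the median and 40 at the highest in the 8 wild-type libraries, and 34, 45.0 and 63 in the 8 Ezh2cKO libraries. The groups overlapped between 34 and 40 (log2 change 0.69 ± 0.164, SE, limma, adjusted p = 0.0094). This call held under each of the 25 alternatives tried, 16 of them leaving out a library. Pcdhb16/Pcdhb17 had 25, 35.0 and 59 calls in the wild type and 37, 52.0 and 59 in the Ezh2cKO (0.43 ± 0.136, limma, adjusted p = 0.046).

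Both baits were also called higher in distant calls, and neither was called within 250 kb. Whether their near and distant changes differed was not tested. Beyond 250 kb Pcdhb11 rose by 0.75 ± 0.151 (limma, adjusted p = 0.0017) and Pcdhb16/Pcdhb17 by 0.45 ± 0.112 (limma, adjusted p = 0.010), where 5.13% of 7136 baits were called higher and 6.92% lower; both held under each of 20 alternatives. Pcdhb22, the last beta gene, had 19, 31.0 and 33 calls in the wild type and 15, 22.5 and 28 in the Ezh2cKO (-0.45 ± 0.141, limma, adjusted p = 0.042). Within 250 kb, where 7.12% of 3245 baits were called higher and 4.28% lower, it was the 1 bait called (-1.05 ± 0.316, limma, adjusted p = 0.043). These last calls were near the threshold. Over all distances Pcdhb22 was lost without any 1 of the Ezh2cKO libraries, and without FNP 1, Mx 1, Mx 2, Md 1 or PA2 1 of the wild type (-0.36 to -0.48). Pcdhb16/Pcdhb17 was lost without FNP 1, FNP 2, Mx 1, Mx 2, Md 2 or PA2 1 of the Ezh2cKO, and without FNP 1, FNP 2, Mx 1, Md 1, Md 2 or PA2 1 of the wild type (0.35 to 0.47). Within 250 kb Pcdhb22 was lost without any 1 library other than PA2 replicate 2 of the wild type (-0.94 to -1.09).

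Single interactions were seldom lost or gained in the Ezh2cKO, here as over all baits. Of 326 interactions called in at least 7 of the 8 wild-type or at least 7 of the 8 Ezh2cKO libraries, 5 were lost, that is called in at most 1 of the 8 Ezh2cKO libraries. That is 1.53%, against 2.09% over all baits. Of these, 3 joined Pcdhb2/Pcdhb3 to other beta baits, namely Pcdhb9/Pcdhb10 (7 wild-type libraries and 0 Ezh2cKO libraries), Pcdhb21 (8 and 0) and Pcdhb12 (7 and 1). The others joined Pcdhb4 to Pcdhga6 (7 and 1) and Pcdhb1 to chr18:37006509-37008620 in the alpha array (7 and 1). The 1 gained interaction (0.307%, against 1.42%) joined Pcdhb15/Pcdhb16 to chr18:36965983-36971125 in the alpha array (1 and 8). Of the 5 lost interactions, 4 joined a pair of protocadherin promoters. Called pairs of protocadherin baits numbered 70 to 85 per library in the wild type and 63 to 76 in the Ezh2cKO. Over all baits, calls that join a pair of baits made up 14.3% to 14.9% of cis calls in the wild type and 12.9% to 14.4% in the Ezh2cKO; whether this shift accounts for the fewer pairs here was not tested.

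The place of the calls shifted a little. Calls ending in the beta array made up 17.9% to 20.3% in the wild type and 15.2% to 18.9% in the Ezh2cKO, and calls ending upstream of the cluster 12.7% to 16.4% and 15.5% to 17.7%. Both pairs of ranges overlap. Of the 41 fragments tested, 1 received more calls in the Ezh2cKO and none fewer, where 2.94% of all 2521 were called higher and 8.05% lower. It was chr18:37076264-37076846 in the alpha array, with 3 to 6 calls in the wild type and 6 to 9 in the Ezh2cKO (0.67 ± 0.196, limma, adjusted p = 0.034). No difference of the Ezh2cKO effect between the 4 sites was called at any of the 24 baits (limma interaction test, lowest adjusted p = 0.71; 3 baits at an unadjusted p under 0.05).

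In the deletion embryos, a promoter that otherwise had few calls gained many. The deletions carry the name of a Hoxa2 regulatory region, which lies on another chromosome than the protocadherins. The deletion libraries also differed from the others in what was listed as a bait. Over the series, 189 baits were listed first in a pair only in libraries other than the deletion ones, and 18 only in deletion libraries. Calls of the Wnt1 bait to chromosome 11 (6.0 to 6.6 Mb) numbered 90 to 132 in the other 18 libraries and 0 in all 6 deletion libraries. The part of these differences in the results on deletions was not tested, and the 36 kb and 42 kb comparisons share the PA2 wild-type libraries.

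The Pcdha3/Pcdha4 bait had 2 or 3 calls in the Md and PA2 libraries of the wild type. It had 21 and 16 in Md and 15 and 18 in PA2 of the 36 kb deletion, and 21 and 18 in PA2 of the 42 kb deletion. No deletion library overlapped any of the other 18 libraries, which had 1 to 7. The log2 change was 2.91 ± 0.342 in the 36 kb comparison (SE, limma, adjusted p = 3.8e-05) and 2.89 ± 0.483 in the 42 kb comparison (limma, adjusted p = 0.0038, or 0.059 without PA2 wild-type replicate 1). The bait passed the filter of a mean of at least 5 calls only through the deletion libraries, in which it is high, so that it had to differ once tested. With a mean of at least 2 calls as the filter, which its mean of 2.94 over the 18 other libraries passes too, the changes were 2.91 ± 0.334 (limma, adjusted p = 2.3e-05) and 2.89 ± 0.472 (limma, adjusted p = 0.0040).

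The added calls joined it to other baits. In the 6 deletion libraries it had 14 to 19 calls to baits and 0 to 4 to other fragments, and in the 18 others 1 to 5 and 0 to 3. Its partners in all 6 deletion libraries and in at most 1 other library were Pcdha12, Pcdhb2/Pcdhb3, Pcdhb4, Pcdhb6/Pcdhb7, Pcdhb8, Pcdhb16/Pcdhb17, Pcdhb17/Pcdhb18 and Pcdhb18/Pcdhb19, at 75.5 to 551 kb. Such deletion-specific interactions numbered 25 of the 90 that the protocadherin baits had in all 6 deletion libraries (27.8%, against 6.45% over all baits). All 25 joined a pair of baits, as did 92.2% of the 1983 found over all baits. The pattern was not confined to protocadherin promoters. An unnamed bait upstream of the cluster, which overlaps Gm6756, supplied several of the 25. Its partners were Pcdha1, Pcdhb6/Pcdhb7, Pcdhb8, Pcdhb11, Pcdhb17/Pcdhb18 and Pcdhb18/Pcdhb19. When pairs of baits were left out, Pcdha3/Pcdha4 and Pcdhb5 had too few calls to be tested.

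**Figure D5:**
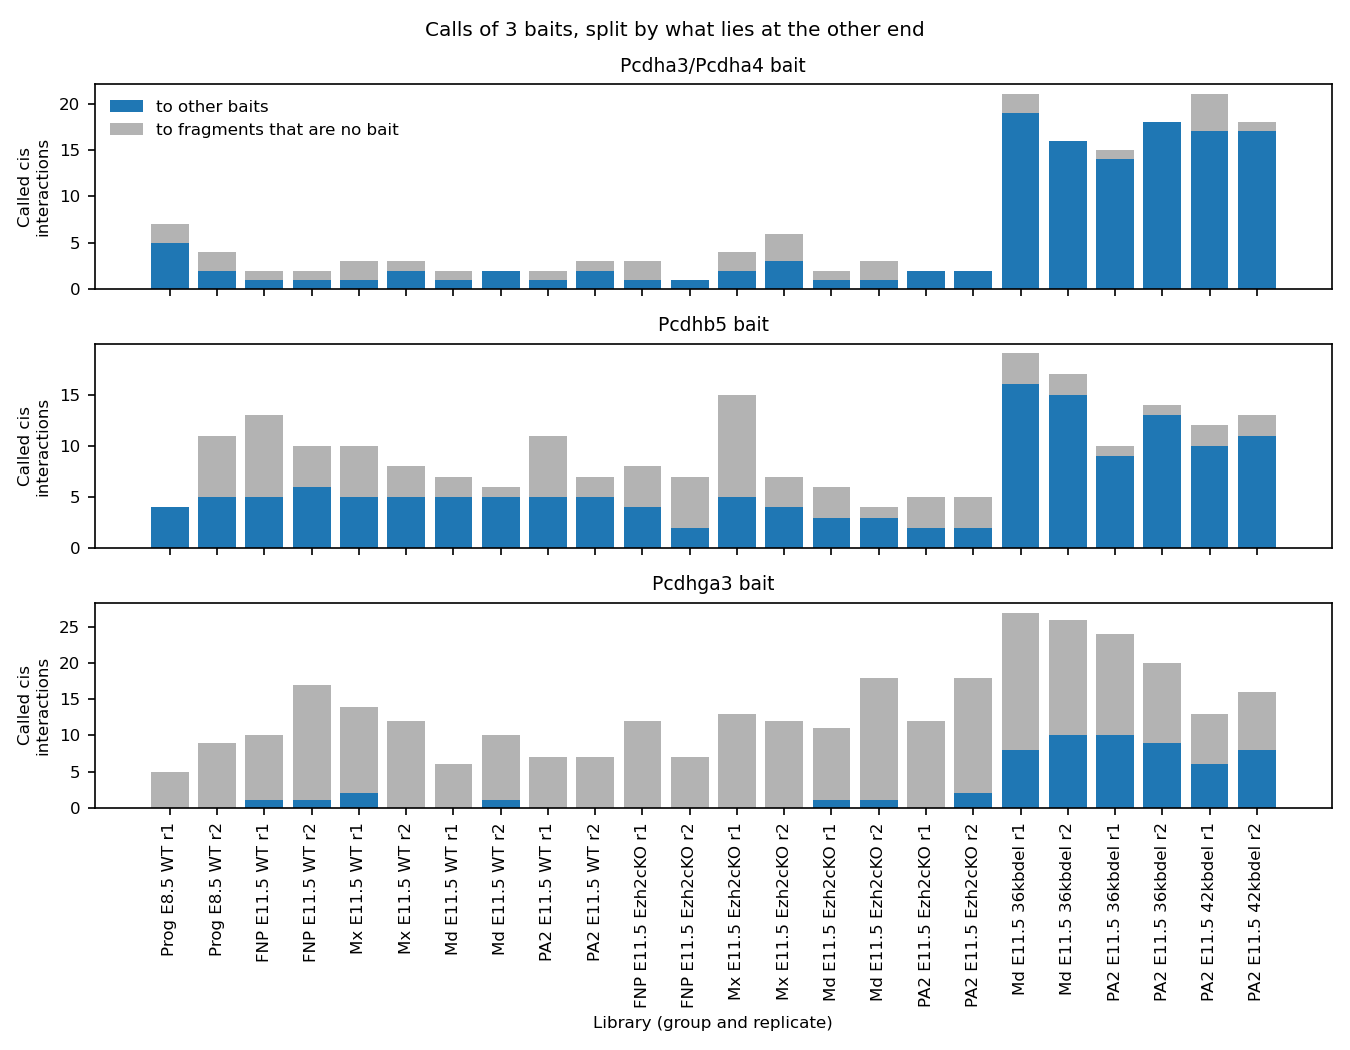
Called cis interactions (y axis) of the Pcdha3/Pcdha4, Pcdhb5 and Pcdhga3 baits in each library (x axis), split into calls to other baits (blue) and to fragments that are no bait (grey). The blue part is 14 to 19 in the deletion libraries and 1 to 5 in the others for Pcdha3/Pcdha4, and the grey part of Pcdhga3 is also high in the 36 kb deletion.

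In the 36 kb comparison 3 of the 24 baits, Pcdha3/Pcdha4 among them, were called higher and 1 lower, where 5.46% of all baits were called higher and 5.65% lower. Pcdhga3 had 6 and 10 calls in Md and 7 and 7 in PA2 of the wild type, and 27 and 26 in Md and 24 and 20 in PA2 of the deletion. The groups did not overlap (log2 change 1.84 ± 0.248, limma, adjusted p = 1.3e-04). Part of this gain lay outside pairs of baits: calls to fragments that are no bait numbered 6 to 9 in the wild type and 11 to 19 in the deletion, and the change without pairs of baits was 1.20 ± 0.254 (limma, adjusted p = 0.012). It held in each of 17 alternatives. Pcdhga3 was called near the promoter as well (within 250 kb, 1.47 ± 0.185, where 9.77% of baits were called higher and 8.72% lower) and far from it (2.10 ± 0.383, where 3.49% were higher and 5.45% lower). Pcdhb5 had 6 to 11 calls in the wild type and 10 to 19 in the deletion (1.10 ± 0.284, limma, adjusted p = 0.017). It was lost without Md replicate 1 of the deletion (1.05), or without Md replicate 2 (1.05) or PA2 replicate 2 (0.95) of the wild type. The groups overlapped at 10 and 11.

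Pcdhb22 had 19 to 32 calls in the wild type and 11 to 16 in the 36 kb deletion (-0.73 ± 0.200, limma, adjusted p = 0.025). It was lost without Md replicate 2 (-0.61) or PA2 replicate 2 (-0.60) of the deletion, and without Md replicate 1 (-0.64) or PA2 replicate 1 (-0.54) of the wild type. Within 250 kb Pcdha12 was called higher (0.80 ± 0.260) and Pcdhb2/Pcdhb3 lower (-1.33 ± 0.439), and beyond 250 kb Pcdha1 (-0.46 ± 0.133) and Pcdhb22 (-0.70 ± 0.200) were called lower. Pcdha3/Pcdha4 had a distant change of 3.41 ± 0.50, and as its mean of distant calls over the 18 other libraries was 1.89, this value is given as a description. Pcdha12 was lost without Md replicate 2 (0.59) or PA2 replicate 1 (0.58) of the deletion or any wild-type library (0.67 to 0.92), and Pcdhb2/Pcdhb3 without any library (-1.11 to -1.55). Pcdha1 was lost without Md 1, PA2 1 or PA2 2 of the deletion and Md 1 or PA2 2 of the wild type (-0.32 to -0.51), and the distant loss of Pcdhb22 without Md 2 or PA2 1 of the deletion and Md 1 or PA2 1 of the wild type (-0.52 to -0.62). Of the 41 fragments, 1 received fewer calls and none more, where 7.42% of all fragments were called lower and 1.82% higher. It was chr18:37667598-37673567 in the gamma array, with 6 to 8 calls in the wild type and 2 to 4 in the deletion (-1.0 ± 0.273, limma, adjusted p = 0.031). No difference of the 36 kb effect between Md and PA2 was called at any of the 24 baits (limma interaction test, lowest adjusted p = 0.69; 1 bait at an unadjusted p under 0.05).

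In the 42 kb deletion the protocadherins had fewer calls in general. Their baits had 362 and 383 calls per 100000 cis calls of the library, below the other 22 libraries, in which the E8.5 libraries had 417 and 452 and the E11.5 wild-type libraries 464 to 537. The change was below 0 at 20 of the 24 baits, with a median of -0.60, against 0.04 over all baits. Single baits rarely passed the test with 2 libraries against 2: 1 was higher, Pcdha3/Pcdha4, and 2 were lower, where 0.822% of all baits were called higher and 1.02% lower. Of the 24, 13 had an unadjusted p under 0.05 (limma), as had 1786 of the 10344 baits tested. A call that joins a pair of these baits counts for both, so the 24 changes are not independent. Pcdha1 had 44 and 54 calls in the wild type and 23 and 29 in the deletion (-0.76 ± 0.191, limma, adjusted p = 0.041). Pcdhb13 had 45 and 41, and 21 and 20 (-0.91 ± 0.230, limma, adjusted p = 0.045). Neither pair of groups overlapped, but Pcdha1 and Pcdhb13 were lost without any 1 of the 4 libraries (-0.62 to -0.91 and -0.84 to -0.98).

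Far from the promoter, where 0.308% of baits were called higher and 1.39% lower, 3 passed the threshold. Pcdha3/Pcdha4 (3.35 ± 0.707) was tested only through its deletion libraries and is given as a description. The others were Pcdha1 (-0.85 ± 0.188) and Pcdhb13 (-0.95 ± 0.235), both lower. Pcdhb13 was lost without any 1 of the 4 libraries (-0.83 to -1.07), Pcdha1 without deletion replicate 1 or either wild-type replicate (-0.69 to -0.99). Within 250 kb, where 3.39% of baits were called higher and 0.894% lower, Pcdhga3 was called higher (1.21 ± 0.262) and was lost without any 1 library (1.08 to 1.34).

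The calls were also counted on the receiving fragments. These are largely the same calls seen from their other end, so the count is no separate support for the fall. Over the 24 libraries, protocadherin baits made 98.4% of the calls on chr18:36957032-36965982 and 99.6% of those on chr18:37686470-37688199. Of the 41 fragments tested inside the cluster and its flanks, 9 were called lower, where 1.98% of all 2521 fragments were, and none was called higher, where 0.159% were (limma). Of the 9, 1 lay upstream of the cluster and 8 inside it, 4 of them in the alpha array and 4 in the gamma array. In the alpha array chr18:36957032-36965982 had 11 and 12 calls in PA2 of the wild type and 4 and 5 in the deletion (-1.13 ± 0.209, limma, adjusted p = 0.0068). In the gamma array chr18:37686470-37688199 had 10 and 13, and 3 and 4 (-1.45 ± 0.292, limma, adjusted p = 0.013). The median change was -1.06 over the 24 fragments inside the cluster and -0.13 over the 7 in Diaph1. With 1 library left out, the number called lower was 10 without deletion replicate 1, 4 without deletion replicate 2, 1 without PA2 wild-type replicate 1 and 3 without PA2 wild-type replicate 2. Without deletion replicate 2 the change of chr18:36957032-36965982 was -0.96 and that of chr18:37686470-37688199 was -1.24; the former was lost there and without wild-type replicate 2 (-1.08), the latter there and without wild-type replicate 1 (-1.26).

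Other genes linked to the clustered protocadherins were read from the same fit, in which 18.6% of all baits were called higher and 10.3% lower at E11.5. The shares were 5.38% and 5.39% in the Ezh2cKO, 5.46% and 5.65% in the 36 kb deletion and 0.822% and 1.02% in the 42 kb deletion. Of the non-clustered protocadherins, which lie outside the arrays, 11 baits were tested. Between E8.5 and E11.5 the calls rose at 6 and fell at 3, with a median change of 0.86. The largest change was that of Pcdh10, an adhesion molecule of the same superfamily, from a mean of 8.5 ± 3.54 (SD, n = 2) to 94.1 ± 12.3 (n = 8) calls (log2 change 3.33, limma, adjusted p = 4.8e-12). Pcdh19 (2.67), Pcdh9 (2.17) and Pcdh17 (1.58) were higher too, and Pcdh12 was lower (-1.50). In the Ezh2cKO 1 was called, Pcdh8 (0.44, limma, adjusted p = 0.027), and in the 36 kb and 42 kb comparisons none was (limma; 0 and 2 at an unadjusted p under 0.05).

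Regulators of loops and of promoter choice had 17 baits tested. At E11.5 against E8.5, 4 were higher and 3 lower, with a median of 0.04, led by Tet2 (1.38), which encodes an enzyme that oxidises methylated cytosine, and Rest (-1.21), a repressor of neuronal genes. Tet2 had few calls at E8.5, with a mean of 3.5 ± 3.54 (SD), and 8.5 ± 2.07 at E11.5. For Rest the means were 15.5 ± 3.54 and 7.0 ± 1.51. In the Ezh2cKO 1 was higher, a bait at Wiz and Akap8l (0.94), and 1 lower, a bait at Trim28 (-0.52), and in the 36 kb deletion 1 was higher, at Wapl (1.29), which encodes a factor that releases cohesin, and 3 were lower. In the 42 kb deletion none was called (limma; 1 at an unadjusted p under 0.05). Of the partners of protocadherin signalling, 13 baits were tested, and 5 were higher at E11.5 and none lower, including the Wnt receptor genes Ryk (1.52) and Lrp6 (1.10) and both baits of Marcks (1.19 and 1.15). None was called in the Ezh2cKO or the 42 kb deletion (limma; 3 at an unadjusted p under 0.05 in each), and 1 was lower in the 36 kb deletion, a bait shared by Cdk5 and 3 other genes (-1.24).

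Most baits of neighbouring genes had fewer calls at the later stage. Of 20 baits tested within 1 Mb of the cluster, 11 had fewer calls at E11.5 than at E8.5 and 1 had more, with a median of -0.88. They included Dele1 (-2.46), Nrg2 (-2.19), which encodes a neuregulin, and Pcdh12. Pcdh12 and Pcdh1 (-1.20) were counted here and also among the non-clustered protocadherins that fell. In the Ezh2cKO 2 were higher and none lower, Tmco6 (0.72) and Ik/Ndufa2 (0.59). In the 36 kb deletion 5 were higher, in the 42 kb deletion 4 were, and none was lower in either. Taf7, in the gap between beta and gamma, was higher in both (1.18 and 1.31). The shares of all baits called higher were 5.38%, 5.46% and 0.822% in these 3 comparisons. Taf7 was also a partner of Pcdhb5 in all 6 deletion libraries and in none of the other 18.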

How the data were processed

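Per the labels, promoter capture Hi-C was made from HindIII-digested chromatin of 24 libraries. The files hold, per pair of fragments, the score that the authors deposited, which is at least 5 in all of them, in mm10 coordinates per the submitters' processing notes. The sources used here name neither an aligner nor an interaction caller. Their reads were not used here, and the depth in reads is not known. Replicates were not pooled in the files. The p-values measure the spread between replicate libraries.

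Genes were placed with RefSeq annotation of GRCm38.p6, and 16535 of the 22203 baits were named by a protein-coding end within 1 kb. The members and lists were chosen with earlier results of these data known. Cis calls per bait were tested as log2((calls + 0.5) / cis calls of the library × 100000), for baits with a mean of at least 5, with 1 mean per group, in limma 3.58.1 (R 4.3.3; lmFit, eBayes with trend), Benjamini-Hochberg adjustment over all baits and a threshold of 0.05. Calls within and beyond 250 kb were fitted alike, and the E8.5, Ezh2cKO and deletion comparisons share wild-type libraries. The fits per fragment, their values without each library, their other filters and the interaction tests were added after the data were seen. Named baits are those past the threshold in any fit, the 3 with the most and the 1 with the fewest calls per array, the 10 most frequent interactions and those lost or gained; from each gene list, up to 5 baits past the threshold. The fits were checked on simulated data. Alternatives were a score of 7, other scalings, filters, constants and distance limits, leaving out pairs of baits or each library, and a replicate block. Promoter motifs were not searched.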

Additional observations from a re-analysis of the deposited data

How the results depend on the processing

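Values here are numbers of the 24 baits past the threshold unless stated. Without each library in turn, the cis comparisons gave 0 to 3 (E11.5 against E8.5), 1 to 3 (Ezh2cKO), 3 to 4 (36 kb) and 0 to 4 (42 kb); within 250 kb 0 to 2, 0 to 1, 1 to 2 and 0 to 2; beyond it 0 to 2, 2 to 3, 2 to 4 and 0 to 2. The main numbers were 3, 3, 4 and 3; 1, 1, 3 and 1; and 2, 2, 4 and 3. With a score of at least 7, the cis comparisons gave 1 for the stages and 2 for 36 kb; within 250 kb all 4 gave 0; beyond it the stages gave 0, 36 kb gave 2 and 42 kb gave 5. A mean of at least 2 calls left 1 for Ezh2cKO and 1 for 42 kb. Without division by the library total 36 kb gave 9. Without pairs of baits 36 kb gave 1 and 42 kb gave 1, and with only the groups compared 42 kb gave 1. A distance limit of 100 kb gave 0 within it in all 4 comparisons. A limit of 500 kb gave 4 (stages) and 2 (Ezh2cKO) within it, and 1 each for the stages, 36 kb and 42 kb beyond it. Of the 7 Diaph1 fragments, 3 were called between the stages with a score of at least 7, and 4 to 5 without each library; with a mean of at least 5 calls at either stage, 6 of 8 fragments of the flank were called, and with a mean of at least 2 calls 7 of 12. The other 3 comparisons gave 0 of the 7.

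Of the single interactions lost in the Ezh2cKO, 5 became 2 with a score of at least 7 and 21 with presence in at least 6 of 8 and at most 2; the 1 gained became 0 when other ends within 10 kb counted as the same, and 19 with presence in at least 6 of 8. The 42 seen only at E11.5 became 80 with ends within 10 kb counted as the same, 25 with a score of at least 7 and 78 with presence in at least 6 of 8; the 32 seen only at E8.5 became 17 and 16 under the former pair. The share of calls inside the cluster was 65.9% with a score of at least 7 and 66.0% with pairs of members counted once. No named bait changed direction in 424 alternative fits, and 134 of them lost the call. The cause of these shifts was not tested.

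Replicate numbers did not pair the libraries: of 66 pairs of groups, 1 had a correlation of replicate differences above 0.1 (median 0.0038). With the replicate block the cis comparisons gave 3, 3, 4 and 2, and no call count moved by over 1.5 times. Calls rest on scores of at least 5 in files without read counts, so weaker contacts are not seen, and groups of 2 libraries limit the 42 kb and E8.5 results.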
